A study of Bos taurus with 41 samples.

Results

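The transcripts described here encode 10 heat shock chaperones and chaperone partners of the cytosol and the mitochondrion: HSP90AB1, HSP90AA1, FKBP4, CHORDC1, HSPA8, HSPH1, HSPD1, HSPE1, HSPB1 and CRYAB. They were chosen by gene symbol from a conceptus count table of 16149 genes, with earlier results of these data known. All 10 were among the 15942 genes that passed the filter on low counts. Heat shock chaperones bind unfolded or partly folded proteins and keep them from aggregating while they fold. The HSP90 and HSP70 machines work in cycles of ATP binding and hydrolysis that partner proteins steer, HSP60 and HSP10 form the folding chamber of the mitochondrial matrix, and small heat shock proteins hold unfolded proteins without using ATP. Many of these genes respond to proteotoxic stress through heat shock factor 1, and several are also abundant in unstressed, growing tissue such as the elongating conceptus.

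Day 16 bovine conceptuses had been collected from Angus-Holstein heifers. In vivo derived (IVD) conceptuses followed artificial insemination, and in vitro produced (IVP) ones followed transfer of 2 blastocysts per heifer. The same Angus bull sired both types. The oocytes of the IVP embryos came from abattoir ovaries, so their dams were not the heifers that carried them. Sections of conceptus were kept for 12 h in modified RPMI medium at atmospheric oxygen, either by themselves (mono-culture) or on an explant of cyclic endometrium from other heifers (co-culture), and poly(A) RNA was sequenced. There were 8 IVD mono-culture, 9 IVD co-culture, 5 IVP mono-culture and 7 IVP co-culture libraries, 29 in all. They came from 13 conceptuses, of which 11 (7 IVD and 4 IVP) were represented in both cultures. Sections of 1 conceptus are not separate animals: conceptuses 23, 24, 26, 47 and 62b each gave 2 co-culture sections, and conceptuses 62a and 62b shared a recipient. The explants under the co-culture libraries came from 7 uteri.

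Between 58583647 and 104436922 reads were assigned to genes per conceptus library. Levels are given as CPM, the count of a gene relative to the total of its library, after totals had been scaled with TMM factors that correct for composition. All 14 trophectoderm markers were among the genes tested, with a median summed level of 28200 CPM in IVD mono-culture, 38500 in IVD co-culture, 33600 in mono-cultured and 73800 in co-cultured IVP tissue. Of 16 endometrial markers, 10 were tested. SERPINA14, PAEP, ESR1, OXTR, HOXA10 and HOXA11 were not among the genes tested, and the summed level of the others ran from 101 to 309 CPM in IVD mono-culture, 129 to 355 in IVD co-culture, 101 to 323 in mono-cultured and 99.2 to 252 in co-cultured IVP tissue. On the average of both conceptus types, MUC1 was the only endometrial marker that rose with co-culture, and LUM fell. Of the 14 trophectoderm markers KRT8 and KRT18 rose, but only 6 had an estimate above 0, and the list median was -0.135. Of the red cell markers HBA and HBM rose. The 3 red cell markers tested had median sums of 3.34 and 35.3 CPM in IVD mono- and co-culture and 12.8 and 23.9 CPM in IVP mono- and co-culture, and their part in the chaperone results was not tested.

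Together the 10 chaperone transcripts took up a median of 0.828% of all counts in IVD mono-culture (0.727% to 1.037%) and 1.216% in IVD co-culture (0.938% to 1.726%). In IVP tissue the median share was 1.014% in mono-culture (0.773% to 1.13%) and 1.363% in co-culture (0.904% to 2.323%). The IVP co-culture libraries were therefore the most spread, and the library with the largest share in that group reached a level that no other conceptus library had. In whole sections, a change in how many cells of a type are present and a change in RNA per cell cannot be told apart.

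Most of these transcripts were more abundantly expressed in conceptus kept on endometrium. On average over both conceptus types 8 of the 10 rose with co-culture, and HSPH1, FKBP4 and HSPD1 had the largest fold changes. With the log2 TMM factor of each library as a covariate none of the 10 passed, and the estimate of FKBP4 went from 1.21 to 0.63 and that of HSPD1 from 1.06 to 0.58. Of all genes tested 18.9% passed in the average, 9.16% as higher and 9.69% as lower (edgeR quasi-likelihood test, adjusted p under 0.05). The median log2 fold change of the 10 members was 0.78, against -0.04 over all genes. Within IVD tissue 4 of 10 passed, all higher (HSP90AB1, FKBP4, HSPD1 and HSPE1), where 6.33% of all genes passed, 3.11% as higher and 3.22% as lower. All 4 calls were lost when the conceptus, which pairs the samples, was a block in the fit (adjusted p = 0.0640 to 0.112). Without the block, the median in IVD tissue was 0.77 over the members and -0.02 over all genes. IVD groups that did not overlap, with co-culture higher, were found for 3 of 10 members and for 0.358% of all genes. Because the members were chosen with earlier results of these data known, their shares beside those of all genes are a description and not a test. In IVP tissue no member and no gene passed (0%), although all 10 estimates were above 0, as were 46.1% over all genes. Without IVP co-culture replicate 2 or conceptus 62a 208 or 354 genes passed. CHORDC1 was the 1 member with an estimate below 0 in IVD tissue and on average, and it did not pass.

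**Figure D1:**
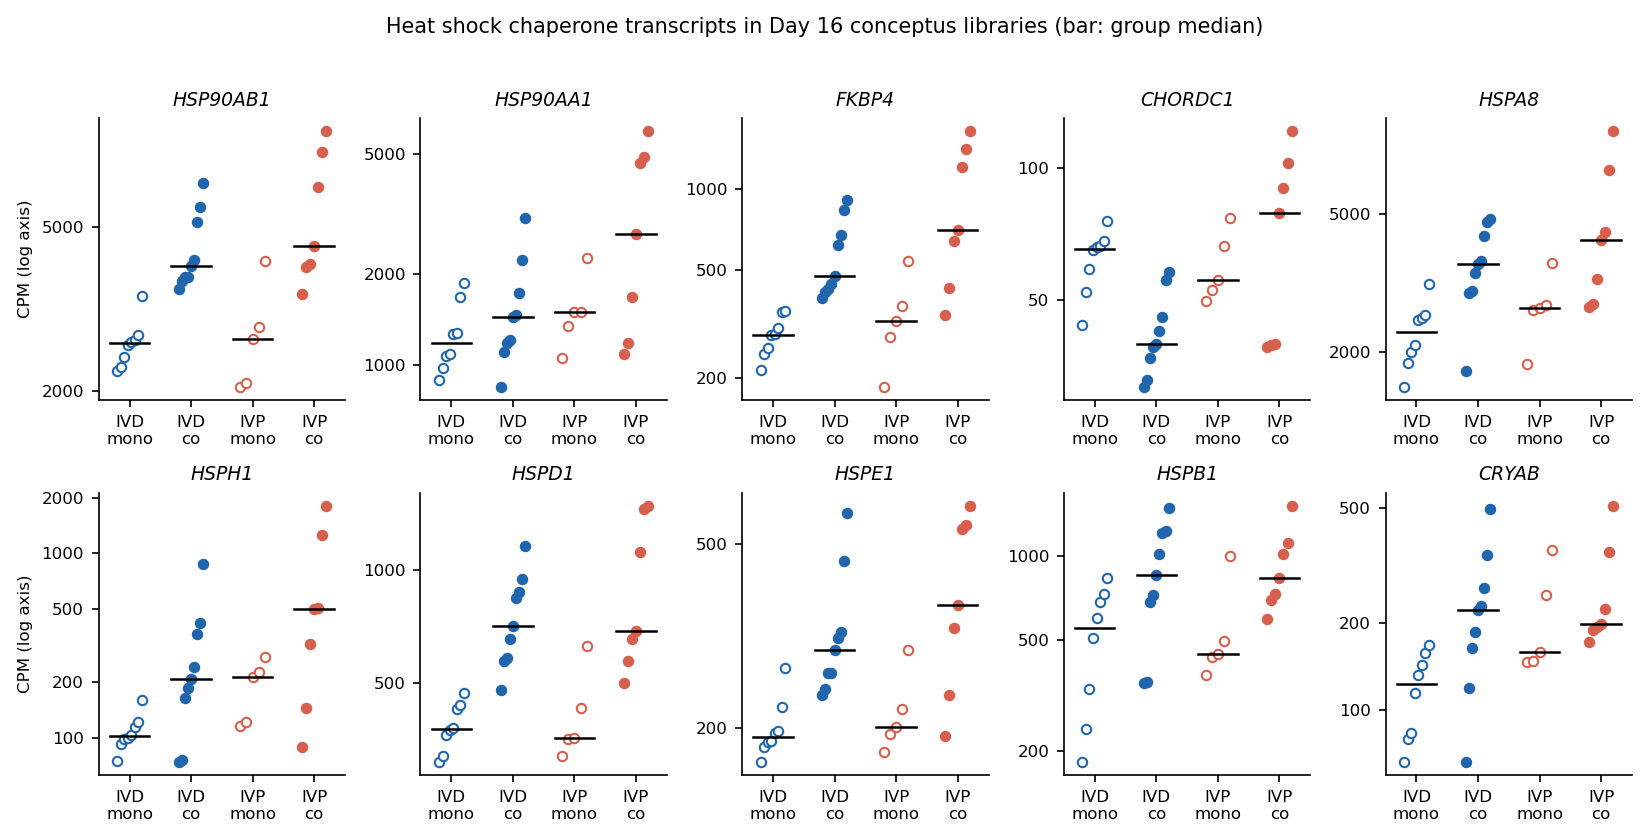
Level of each chaperone transcript in the 29 conceptus libraries, in CPM on a log axis. Each point is 1 library, open points are mono-culture, filled points are co-culture, blue is IVD, red is IVP, and the bar is the group median. For HSP90AB1, HSPD1 and FKBP4 every IVD co-culture point lies above every IVD mono-culture point, whereas CHORDC1 lies lower in IVD co-culture.

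HSP90AB1, the constitutively expressed cytosolic HSP90, was more abundantly expressed in co-culture in IVD tissue and on average over both types. Its level was 2229, 2608 and 3391 CPM (lowest, median and highest of 8) in IVD mono-culture and 3535, 4016 and 6382 CPM (of 9) in IVD co-culture. In IVP mono-culture, replicates 1 to 5 were at 2850, 2088, 4143, 2673 and 2037 CPM, and IVP co-culture spanned 3442, 4497 and 8549 CPM (lowest, median and highest of 7). The IVD groups did not overlap. The IVP groups overlapped through 1 mono-culture library, replicate 3 from conceptus 62a, which was above 3 of the 7 co-culture libraries. The log2 fold change of co- against mono-culture was 0.77 in IVD tissue (SE 0.19, adjusted p = 0.0186, edgeR) and 0.99 in IVP tissue (SE 0.23, adjusted p = 0.142), and their average was 0.88 (SE 0.15, adjusted p = 0.000891).

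HSP90AA1, the stress-inducible cytosolic HSP90, followed another pattern. It stood at 891, 1176 and 1869 CPM in IVD mono-culture and 839.7, 1442 and 3068 CPM in IVD co-culture, and the groups overlapped, with 2 of 9 co-culture libraries above all of mono-culture. The 5 IVP mono-culture libraries held 1499, 1495, 1343, 1054 and 2262 CPM. The 7 IVP co-culture libraries held 4882, 1177, 1671, 5970, 2716, 4662 and 1083 CPM, so 4 of them lay above all of mono-culture and the other 3 within its range. No difference passed the test within IVD tissue (log2 fold change 0.33, SE 0.30, adjusted p = 0.555) or IVP tissue (1.05, SE 0.37, adjusted p = 0.160). The average effect was 0.69 (SE 0.24, adjusted p = 0.0442), which is close to the threshold. It did not pass with the conceptus as a block (0.79, SE 0.27, adjusted p = 0.0573), nor when any of 16 libraries was left out (0.58 to 0.69, adjusted p = 0.0532 to 0.0870). Those were IVD mono-culture replicates 2, 3, 5, 6, 7 and 8, IVP mono-culture replicates 1, 2, 3 and 4, IVD co-culture replicates 1, 6 and 7, and IVP co-culture replicates 1, 4 and 6.

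FKBP4, the immunophilin FKBP52 that joins HSP90 to steroid hormone receptors, rose with co-culture in IVD tissue and on average. Levels were 213.6, 289.4 and 353.3 CPM in IVD mono-culture and 394.6, 474.3 and 910.1 CPM in IVD co-culture, with no overlap. In IVP tissue, mono-culture replicates 1 to 5 had 325.2, 184.5, 543.2, 283.6 and 369.4 CPM, against 340.7, 701.5 and 1635 CPM in IVP co-culture, where 5 of 7 libraries exceeded all of mono-culture. The log2 fold change was 1.00 in IVD tissue (SE 0.27, adjusted p = 0.0280), 1.41 in IVP tissue (SE 0.33, adjusted p = 0.142) and 1.21 on average (SE 0.21, adjusted p = 0.00102). The IVD call was lost without IVD mono-culture replicate 6, IVD co-culture replicate 7 or IVD co-culture replicate 8 (0.91 to 0.98, adjusted p = 0.0514 to 0.0596).

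CHORDC1, a CHORD-domain co-chaperone of HSP90, did not follow the other members. In IVD tissue its level was 43.78, 65.41 and 75.59 CPM in mono-culture and 31.61, 39.73 and 57.98 CPM in co-culture, and 6 of 9 co-culture libraries were below all of mono-culture. IVP mono-culture replicates 1 to 5 were at 55.4, 76.8, 52.72, 66.37 and 49.74 CPM. In IVP co-culture, replicates 2, 3 and 7 were at 39.48, 39.17 and 39.79 CPM, whereas replicates 1, 4, 5 and 6 were at 79.08, 89.87, 102.3 and 121.3 CPM. The IVP co-culture libraries thus lay on both sides of mono-culture, 3 below all of it and 4 above all of it. The log2 fold change was -0.55 in IVD tissue (SE 0.20, adjusted p = 0.0918), 0.28 in IVP tissue (SE 0.24, adjusted p = 0.577) and -0.13 on average (SE 0.16, adjusted p = 0.581), none past the threshold. With counts summed per conceptus and culture it passed as lower in IVD tissue (-0.52, SE 0.15, adjusted p = 0.0323). There 4.13% of all genes passed as lower. It also passed as lower in a fit of only the IVD groups, but not with the conceptus as a block (-0.53, SE 0.24, adjusted p = 0.196).

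HSPA8, the constitutive cytosolic HSP70 known as HSC70, stood at 1580, 2287 and 3134 CPM in IVD mono-culture and 1762, 3583 and 4837 CPM in IVD co-culture, with 6 of 9 co-culture libraries above all of mono-culture. The IVP mono-culture levels of replicates 1 to 5 were 2675, 1850, 3609, 2633 and 2725 CPM, and IVP co-culture spanned 2694, 4188 and 8658 CPM. In both types the groups overlapped. The average effect was 0.72 (SE 0.18, adjusted p = 0.00685). Neither IVD tissue (0.66, SE 0.22, adjusted p = 0.0723) nor IVP tissue (0.79, SE 0.27, adjusted p = 0.155) passed on its own.

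HSPH1, the HSP110 that exchanges nucleotide on HSP70, had the largest fold change of the 10 and the widest spread. IVD mono-culture was at 74.9, 101.6 and 159.5 CPM. The 9 IVD co-culture libraries held 418.2, 207.5, 241.1, 75.74, 73.66, 365.7, 870.1, 165.1 and 186.2 CPM. Replicates 4 and 5 of these remained at the level of mono-culture, and the other 7 exceeded all of it. IVP mono-culture replicates 1 to 5 held 212.1, 121.3, 227.4, 115.1 and 272.7 CPM. IVP co-culture replicates 1 to 7 held 1812, 144.8, 324, 1258, 503.7, 499.4 and 89.24 CPM, with replicate 2 inside and replicate 7 below the range of mono-culture. The average log2 fold change was 1.61 (SE 0.39, adjusted p = 0.00606), whereas 1.42 in IVD tissue (SE 0.48, adjusted p = 0.0703) and 1.80 in IVP tissue (SE 0.60, adjusted p = 0.151) did not pass. Left out 1 at a time, IVD co-culture replicate 4, IVD co-culture replicate 5 or IVP co-culture replicate 7 brought the IVD estimate past the threshold (1.45 to 1.57, adjusted p = 0.0346 to 0.0493).

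HSPD1 and HSPE1 encode HSP60 and HSP10, the chaperonin and co-chaperonin of the mitochondrial matrix, and lie next to each other in the RefSeq annotation of ARS-UCD2.0. HSPD1 was at 306.9, 377.2 and 469.2 CPM in IVD mono-culture and 476.9, 708.4 and 1159 CPM in IVD co-culture, with no overlap between the groups. In IVP mono-culture it held 427.2, 318.6, 628, 353.4 and 356.7 CPM in replicates 1 to 5, and IVP co-culture replicates 1 to 7 held 1484, 498.5, 570.2, 1454, 655.1, 1119 and 687.2 CPM. Only IVP mono-culture replicate 3 rose into the co-culture range. The log2 fold change of HSPD1 was 0.98 in IVD tissue (SE 0.22, adjusted p = 0.0108), 1.15 in IVP tissue (SE 0.26, adjusted p = 0.142) and 1.06 on average (SE 0.17, adjusted p = 0.000655), the smallest adjusted p of the 10 members in the average.

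HSPE1 ran at 168.8, 191.4 and 269.7 CPM in IVD mono-culture and 236.3, 294.8 and 583.7 CPM in IVD co-culture. The overlap came from IVD mono-culture replicate 1, which was above 4 of the 9 co-culture libraries. In IVP mono-culture, replicates 1 to 5 held 220.6, 177.6, 294.8, 194.7 and 201.1 CPM, against 192.5, 368.8 and 606.6 CPM in IVP co-culture. Its log2 fold change was 0.72 in IVD tissue (SE 0.21, adjusted p = 0.0392), 0.89 in IVP tissue (SE 0.26, adjusted p = 0.142) and 0.80 on average (SE 0.17, adjusted p = 0.00262). In IVD tissue the call was lost without any of 11 libraries (0.59 to 0.74, adjusted p = 0.0520 to 0.0849), namely IVD mono-culture replicates 2 to 8 and IVD co-culture replicates 1, 7, 8 and 9.

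HSPB1, the small heat shock protein HSP27, was at 182.5, 552.2 and 829.4 CPM in IVD mono-culture and 350.6, 854 and 1484 CPM in IVD co-culture. IVP mono-culture replicates 1 to 5 held 446.7, 496.2, 999.3, 435.1 and 373.3 CPM, with replicate 3 well above the other 4, and IVP co-culture held 595.5, 831 and 1510 CPM. The groups overlapped in both types. The log2 fold change was 0.77 in IVD tissue (SE 0.31, adjusted p = 0.124), 0.75 in IVP tissue (SE 0.38, adjusted p = 0.289) and 0.76 on average (SE 0.25, adjusted p = 0.0305). The average call ended without IVP mono-culture replicate 1, 2, 4 or 5 or IVP co-culture replicate 1 (0.70 to 0.75, adjusted p = 0.0545 to 0.0659), and with counts summed per conceptus and culture (0.73, SE 0.26, adjusted p = 0.0560).

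CRYAB, the small heat shock protein alpha-B-crystallin, was at 66.13, 122.9 and 167.7 CPM in IVD mono-culture and 65.77, 221.1 and 498.5 CPM in IVD co-culture. Levels in IVP mono-culture were 158.6, 250.3, 146.7, 147.9 and 359.8 CPM in replicates 1 to 5, and IVP co-culture was at 172, 198.9 and 511.1 CPM. Most IVD co-culture libraries, 6 of 9, were above all of IVD mono-culture, while only 1 of 7 IVP co-culture libraries was above all of IVP mono-culture. The log2 fold change was 0.98 in IVD tissue (SE 0.31, adjusted p = 0.0544), 0.31 in IVP tissue (SE 0.37, adjusted p = 0.710) and 0.64 on average (SE 0.24, adjusted p = 0.0626). With the conceptus as a block CRYAB passed in IVD tissue (0.97, SE 0.23, adjusted p = 0.0489) and on average (0.75, SE 0.19, adjusted p = 0.0225). With counts summed per conceptus and culture it passed in IVD tissue (1.03, SE 0.30, adjusted p = 0.0354) but not on average (0.61, SE 0.24, adjusted p = 0.0934). In IVD tissue it also passed without IVD co-culture replicate 4, 5 or 9 or IVP co-culture replicate 4 (1.00 to 1.10, adjusted p = 0.0264 to 0.0479), and on average without IVP mono-culture replicate 5 or IVD co-culture replicate 4 or 9 (0.69 to 0.78, adjusted p = 0.0276 to 0.0475).

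The fit with the conceptus as a block compares cultures within each conceptus. In IVD tissue 206 genes (1.29%) passed it, with CRYAB as the 1 member among them. The 4 members called without the block were then at 0.76 for HSP90AB1 (SE 0.23, adjusted p = 0.0814), 0.96 for HSPD1 (SE 0.26, adjusted p = 0.0640), 0.97 for FKBP4 (SE 0.32, adjusted p = 0.0947) and 0.73 for HSPE1 (SE 0.26, adjusted p = 0.112). No member passed when conceptus 26, which gave 1 mono-culture and 2 co-culture libraries, was left out (HSPD1 0.84, adjusted p = 0.0677), and HSPD1 alone passed without conceptus 8, 47 or 71.

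In IVP tissue 2914 genes had an unadjusted p under 0.05, and the smallest adjusted p of all genes was 0.142, which HSP90AB1, HSPD1, FKBP4 and HSPE1 shared. The median estimate was 0.94 over the members and -0.053 over all genes. DESeq2 on the same counts called 489 genes (4.16%) and 5 members (HSP90AB1, HSPD1, HSPE1, FKBP4 and HSPH1). In edgeR, HSP90AB1, HSPD1 and FKBP4 passed without IVP mono-culture replicate 3 or without IVP co-culture replicate 2 (adjusted p = 0.0355 and 0.0397), and HSPE1 also passed without the latter (1.01, adjusted p = 0.0465).

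In the average over both types, the calls of HSP90AB1, HSPD1, FKBP4, HSPE1, HSPH1 and HSPA8 held without any 1 library or conceptus. The conceptus block also gave 8 members (6.32% of all genes higher), with CRYAB in and HSP90AA1 out. None of the 10 passed, and 2 genes of all tested did (0.0125%), once the log2 TMM factor of each library entered the fit as a covariate: HSP90AB1 was then at 0.47 (SE 0.12, adjusted p = 0.0893), HSPD1 at 0.58 (SE 0.16, adjusted p = 0.0979) and HSPE1 at 0.27 (SE 0.14, adjusted p = 0.354).

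**Figure D2:**
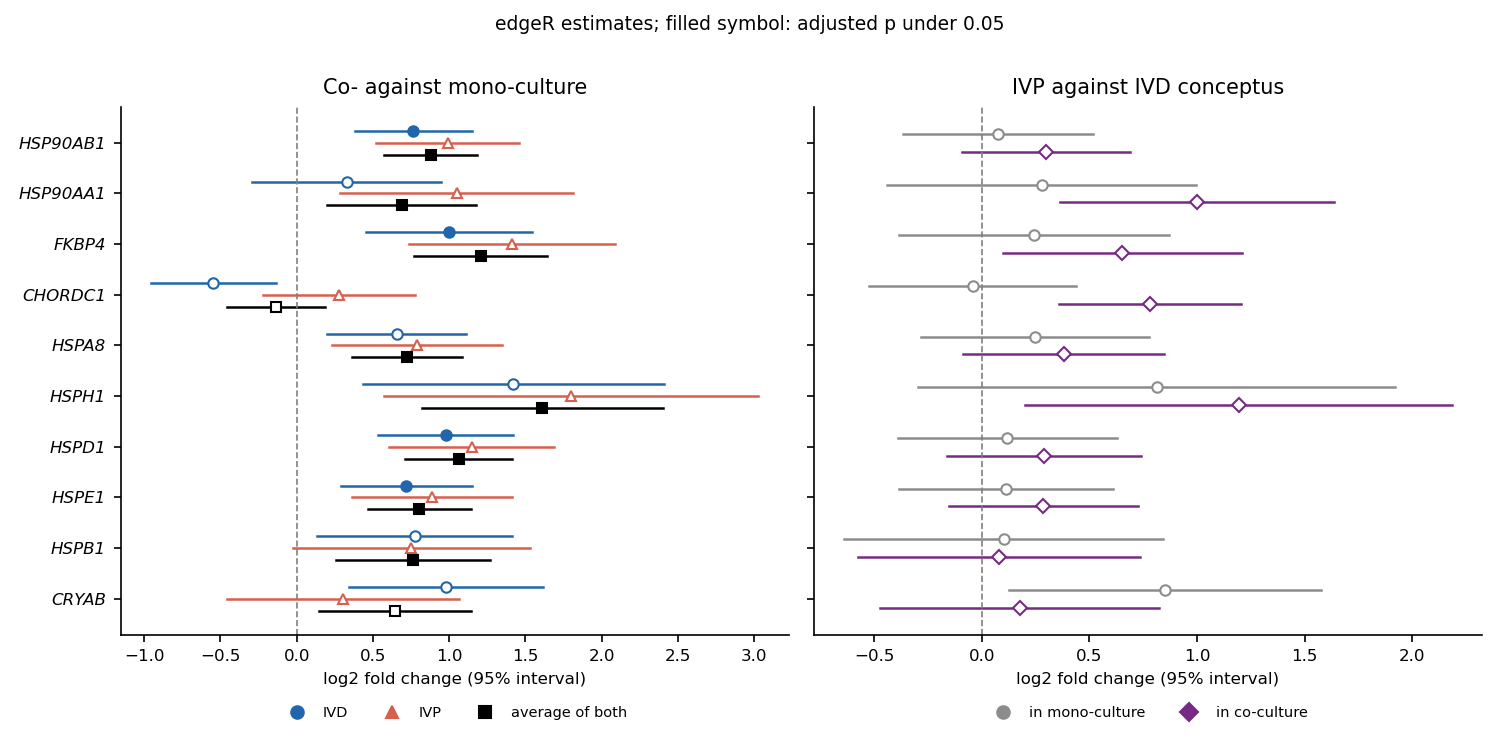
Log2 fold change of each chaperone with its 95% interval from the edgeR fit. The left panel gives co- against mono-culture in IVD tissue (circles), IVP tissue (triangles) and their average (squares), the right panel gives IVP against IVD tissue in mono-culture (circles) and co-culture (diamonds), and filled symbols mark an adjusted p under 0.05. In the left panel 4 IVD and 8 average estimates are filled and no IVP estimate is, and in the right panel none is filled.

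Within the 11 conceptuses that were cultured both ways, HSPD1, HSPE1, FKBP4, HSPA8 and CRYAB were higher in co-culture in 11 of 11, which held for 2.25% of all genes. HSP90AB1, HSP90AA1, HSPH1 and HSPB1 were higher in 10 of 11, and 8.2% of all genes were higher in at least 10. The median difference in log2 CPM was 1.11 for HSPD1 (0.06 in conceptus 62a to 1.56 in conceptus 26), 1.02 for FKBP4 (0.37 to 1.91), 0.67 for HSPE1 (0.32 to 1.11) and 0.63 for CRYAB (0.32 to 1.92). It was 0.90 for HSP90AB1 (-0.03 to 1.38), 0.80 for HSP90AA1 (-0.11 to 1.09), 1.17 for HSPH1 (-0.49 to 2.29), 0.50 for HSPA8 (0.16 to 1.38) and 0.95 for HSPB1 (-0.27 to 1.47). Conceptus 62a, whose mono-culture section had the highest level of 6 members in its group, had the smallest difference for HSP90AB1, HSPD1, HSPE1, FKBP4 and HSPB1. CHORDC1 was lower in co-culture in 7 of 11 conceptuses, with a median difference of -0.37 (-1.07 to 0.96). By type it was lower in 6 of 7 IVD conceptuses. In IVP tissue the difference was -0.37 in conceptus 23, 0.01 in conceptus 24, 0.07 in conceptus 62b and 0.96 in conceptus 62a. Conceptuses 24 and 62b thus hardly changed. Without TMM scaling CHORDC1 was lower in 6 of 7 IVD and 3 of 4 IVP conceptuses. How many of all genes were lower in as many conceptuses was not computed.

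The differences of HSP90AA1 ran from 0.83 to 1.09 in the 4 IVP conceptuses and from -0.11 to 0.96 in the 7 IVD conceptuses. The narrow IVP range rests on averages of unlike sections. Conceptus 23 had 1177 and 5970 CPM in co-culture against 1495 in mono-culture, and conceptus 62b had 4662 and 1083 against 1054. Without TMM scaling the differences ran from 0.43 to 1.11 in IVP and from -0.39 to 0.77 in IVD conceptuses. Without TMM scaling, HSP90AB1 was higher in 11 of 11 conceptuses, HSP90AA1 and HSPH1 in 9, and CHORDC1 lower in 9. The shares of all genes without this scaling were not computed.

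**Figure D3:**
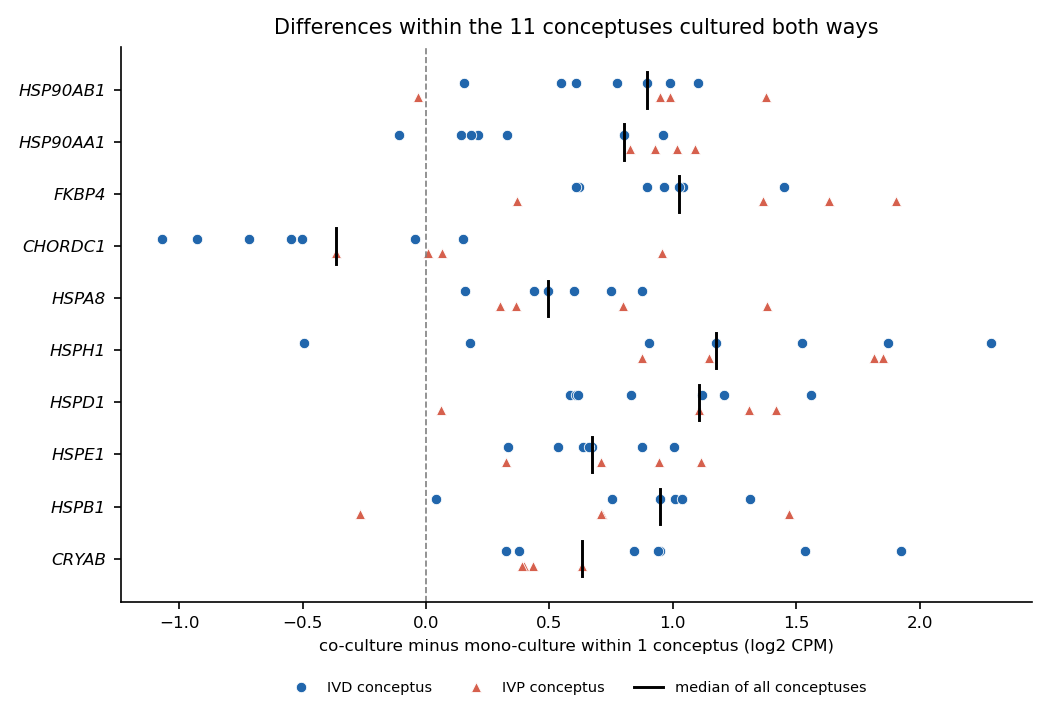
Difference in log2 CPM between co- and mono-culture within each of the 11 conceptuses cultured both ways, 1 row per chaperone, with 2 co-culture sections averaged where there were 2. Circles are the 7 IVD conceptuses, triangles the 4 IVP conceptuses, and the bar is the median of the 11. Points lie to the right of 0 in at least 10 of 11 conceptuses for 9 members, and to the left in 7 of 11 for CHORDC1.

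The 5 conceptuses with 2 co-culture sections, each section on another uterus, show how far sections of 1 conceptus can differ. Both sections were above the mono-culture section in 5 of 5 conceptuses for HSP90AB1, HSPD1, HSPE1, FKBP4, HSPA8 and HSPB1. That held in 3 of 5 for HSPH1 and CRYAB, in 2 of 5 for HSP90AA1, and in none for CHORDC1. How many of all genes meet this rule was not computed, so these counts describe the members only. HSPH1 in conceptus 24 was at 212.1 CPM in mono-culture, 1812 CPM on the explant of uterus E14 and 324 CPM on that of uterus E39. In conceptus 23 it was at 121.3 CPM in mono-culture, 144.8 CPM on uterus E14 and 1258 CPM on uterus E39. The sections of these 2 conceptuses on the same 2 uteri went opposite ways, and so did their HSP90AA1, at 4882 and 1671 CPM in conceptus 24 and 1177 and 5970 CPM in conceptus 23.

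Comparison of IVP with IVD conceptuses asked whether these transcripts differ with embryo origin. The dams differed with origin, since IVP oocytes came from abattoir ovaries, so origin and dam cannot be told apart. In mono-culture no gene passed (0%; 331 genes at an unadjusted p under 0.05, smallest adjusted p 1, and 1 gene in DESeq2). HSP90AB1 differed by 0.08 on the log2 scale (95% interval -0.37 to 0.52), HSPD1 by 0.12 (-0.39 to 0.63) and HSPE1 by 0.11 (-0.38 to 0.61), all with an adjusted p of 1. CRYAB had the largest difference, 0.85 higher in IVP tissue (0.13 to 1.58, unadjusted p = 0.0228, adjusted p = 1), followed by HSPH1 (0.81, -0.29 to 1.92).

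In co-culture 4 genes of all tested passed (0.0251%) and no member did. The number of genes that passed was 107 without IVP co-culture replicate 2 and 0 without IVP co-culture replicate 5. All 10 member estimates were above 0 with a median of 0.34, against 44.1% above 0 and a median of -0.056 over all genes. Members varied together across libraries, so their signs are not independent, and some turned under other settings. The smallest adjusted p was that of CHORDC1, 0.78 higher in IVP tissue (SE 0.21, adjusted p = 0.161). HSP90AA1 was 1.00 higher (SE 0.31, adjusted p = 0.202), HSPH1 1.19 higher (SE 0.48, adjusted p = 0.295) and FKBP4 0.65 higher (SE 0.27, adjusted p = 0.301). For CHORDC1, the 4 high IVP co-culture libraries were above all 9 IVD co-culture libraries, and the 3 low ones lay inside the IVD range. It passed in DESeq2, which called 157 genes (0.994%), and in edgeR without IVP co-culture replicate 2 or 3 (0.89, adjusted p = 0.0409 and 0.0412). Sections of 1 conceptus enter this comparison as separate libraries (7 from 4 conceptuses against 9 from 7), and 15 genes passed with counts summed per conceptus and 2 with the conceptus as a random block in limma voom.

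The test of whether the response itself differed between types, IVP change minus IVD change, called no gene (0%; 281 at an unadjusted p under 0.05, and none in DESeq2). CHORDC1 had a difference of 0.82 (SE 0.32, unadjusted p = 0.0142, adjusted p = 1), HSP90AA1 of 0.72 (95% interval -0.25 to 1.69) and CRYAB of -0.68 (-1.66 to 0.30). For HSPD1 the interval ran from -0.51 to 0.85 and for HSP90AB1 from -0.37 to 0.82.

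After removal of group means, the members differed in how closely they varied together across the 29 libraries. HSP90AB1, HSPD1, HSPE1 and FKBP4 were correlated with each other, from r = 0.796 for HSP90AB1 with HSPE1 to r = 0.893 for HSPE1 with FKBP4. HSP90AA1 went with HSPH1 (r = 0.891) and CRYAB (0.703), and less with its paralog HSP90AB1 (0.583). FKBP4 went with this pair as well, at 0.707 with HSP90AA1 and 0.706 with HSPH1. HSPA8 went with HSPH1 (0.794), FKBP4 (0.757), HSP90AB1 (0.726) and HSPD1 (0.715) and not with HSPB1 (0.084), and CRYAB was nearly unrelated to HSPE1 (0.194) and HSPD1 (0.214). These coefficients describe 29 libraries that share conceptuses and scaling factors, so no p is given.

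The members also differed in how they went with the scaling factor of the library. Mean log2 TMM factors were 0.136 and -0.0389 in mono- and co-cultured IVD tissue and 0.114 and -0.187 in mono- and co-cultured IVP tissue, and 9 of 11 conceptuses had the lower factor in co-culture. Within groups its correlation was -0.773 with HSPE1, -0.76 with HSP90AB1, -0.707 with HSPD1 and -0.659 with FKBP4. It was -0.22 with HSP90AA1, -0.23 with HSPH1 and 0.071 with CRYAB, against a median of 0.066 over all genes. The log2 CPM had been divided by this same factor, so a negative coefficient is partly built in. Coefficients on unscaled values were not computed. The factor comes from the same counts and differs between the cultures, so the fit with it as covariate cannot tell library composition and culture apart. The part of library composition in the chaperone differences was therefore not tested.

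**Figure D4:**
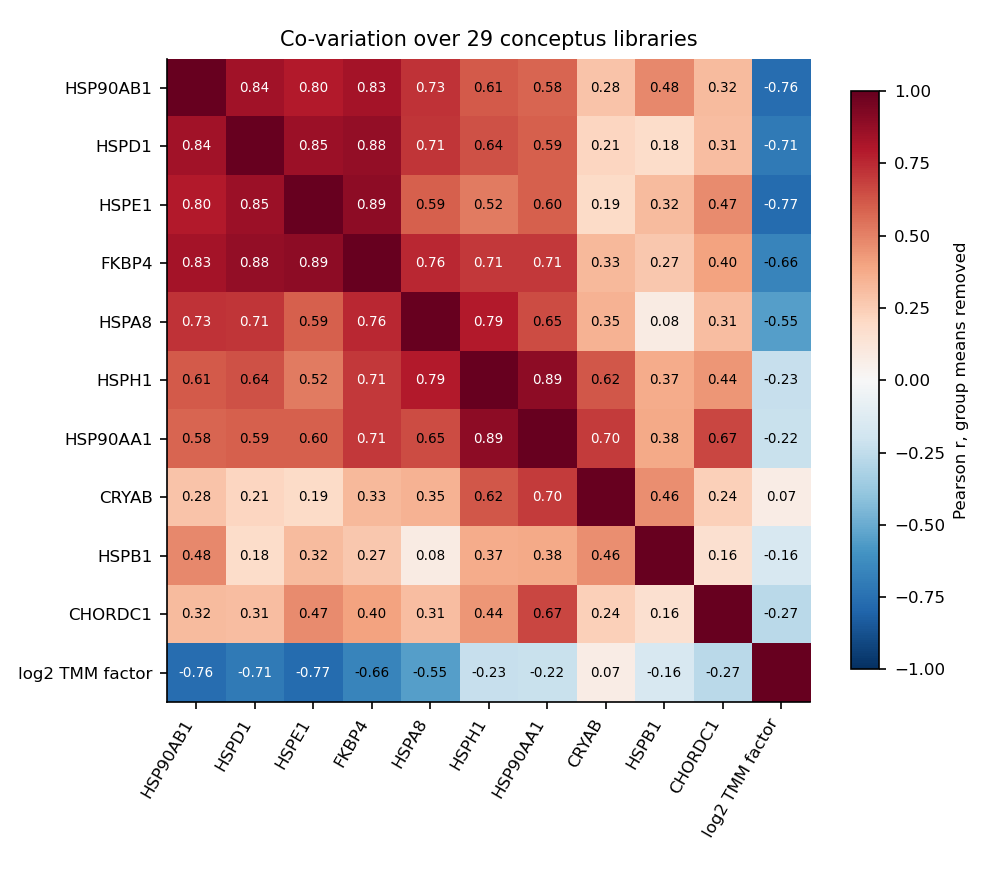
Pearson correlation of log2 CPM among the 10 chaperones and with the log2 TMM factor over the 29 conceptus libraries, after removal of group means. Red is positive and blue negative. HSP90AB1, HSPD1, HSPE1 and FKBP4 form a block with coefficients from 0.796 to 0.893 and go against the TMM factor, from -0.659 to -0.773.

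Of 10378 other genes with a symbol, those nearest to HSPH1 were DNAJB1, an inducible HSP40 (r = 0.933), ASRGL1 (0.88) and BAG3, a co-chaperone that links HSP70 to selective autophagy (0.865). Nearest to HSP90AA1 were CACYBP (0.929), EIF4G2 (0.898) and VARS1 (0.894), and nearest to HSPA8 were its J-domain partner DNAJA1 (0.89), GK (0.798) and INTS12 (0.79). For FKBP4 they were AHSA1, the activator of the HSP90 ATPase (0.892), TRMT1 (0.883) and CCT3, a subunit of the cytosolic chaperonin (0.876). HSPE1 was closest to ATP5MC1, a subunit of the mitochondrial ATP synthase (0.967), TMEM258 (0.944) and the matrix protein C1QBP (0.94), and HSPD1 to SPSB3 (0.947), AP2M1 (0.89) and CLPTM1L (0.883). HSP90AB1 was closest to IMPDH2 (0.914), ANKRD13D (0.904) and TRIM28 (0.896). The nearest genes of CHORDC1 were SRSF11 (0.831), SAE1 (0.819) and SET (0.817), those of HSPB1 were RASSF1 (0.886), PPP1R14A (0.876) and PPP1R15A (0.874), and those of CRYAB were ETS2 (0.853), CDV3 (0.84) and CRABP2 (0.826). No gene was among the 3 nearest of more than 1 member.

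Partners of the chaperones were examined with lists from the same pathways, on the average of both types. As a reference for each list, 9.16% of all genes rose and 9.69% fell in that average. Of 22 HSP90 family members and co-chaperones 10 rose and 1 fell, with a list median of 0.335 against -0.04 over all genes. Among them were FKBP8, an immunophilin of the mitochondrial outer membrane (0.68, SE 0.12, adjusted p = 0.000938), TOMM70, the import receptor that docks HSP90 and HSP70 (0.52, SE 0.11, adjusted p = 0.00273), HSP90B1, the HSP90 of the endoplasmic reticulum (1.02, SE 0.21, adjusted p = 0.00278), and TRAP1, the mitochondrial HSP90 (0.61, SE 0.13, adjusted p = 0.00363). The 1 that fell was TTC4, a TPR co-chaperone (-0.75, SE 0.21, adjusted p = 0.0151), which was named after its value was seen.

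Of 13 HSP70 family members tested, HSPA5, the HSP70 of the endoplasmic reticulum (1.58, SE 0.47, adjusted p = 0.0208), and HSPA6, a stress-inducible HSP70 (2.10, SE 0.74, adjusted p = 0.0465), rose and HSPA1L fell (-0.94, SE 0.30, adjusted p = 0.0299). The list median was 0.034, and of all genes 9.16% rose and 9.69% fell. The HSPA6 call ended without any of 18 libraries (1.91 to 2.20, adjusted p = 0.0507 to 0.0896), namely IVD mono-culture replicates 1, 2, 3, 4, 5, 7 and 8, IVP mono-culture replicates 1, 2, 3 and 4, IVD co-culture replicates 1, 3, 6 and 7, and IVP co-culture replicates 1, 3 and 4. That of HSPA1L ended without IVP mono-culture replicate 2 or IVP co-culture replicate 1, 4 or 6 (-0.91 to -0.76). HSPA5 passed without any 1 library but not without conceptus 23, 24, 26 or 62b (adjusted p up to 0.0539). HSPA1A, the classical inducible HSP70, had an estimate of 0.91 (SE 0.42, adjusted p = 0.131). It was higher in co-culture in 9 of 11 conceptuses, and 16.2% of all genes were higher in at least 9. HSPA9, the mitochondrial HSP70 that hands proteins to HSPD1, had an estimate of -0.01. Both HSPA1A and HSPA9 were named after their values were seen.

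Among 21 J-domain partners 4 rose and 3 fell (median 0.051), where 9.16% of all genes rose and 9.69% fell. They included DNAJB1 (1.65, SE 0.39, adjusted p = 0.00549) and DNAJA1 (0.87, SE 0.22, adjusted p = 0.00824) above 0 and DNAJB5 (-0.82, SE 0.21, adjusted p = 0.00950) and DNAJB14 (-0.41, SE 0.11, adjusted p = 0.0128) below it. Of 10 nucleotide exchange factors and regulators of HSP70 3 rose and none fell (median 0.182): BAG3 (1.65, SE 0.38, adjusted p = 0.00475), ST13 (0.45, SE 0.11, adjusted p = 0.00606) and BAG6 (0.36, SE 0.10, adjusted p = 0.0172). BAG3, DNAJA1, AHSA1 and HSP90B1 were higher in co-culture in 11 of 11 conceptuses, which held for 2.25% of all genes. With the conceptus as a block HSPA6, DNAJB14 and BAG6 no longer passed (adjusted p = 0.129, 0.0544 and 0.0770).

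Of 16 mitochondrial proteostasis genes 4 rose and none fell (median 0.116): the proteases SPG7 (0.44, SE 0.08, adjusted p = 0.00161) and AFG3L2 (0.26, SE 0.08, adjusted p = 0.0267), the unfoldase CLPX (0.41, SE 0.12, adjusted p = 0.0216) and TRAP1. Without IVP mono-culture replicate 1 or 4 AFG3L2 did not pass (0.23 to 0.25), nor did CLPX without IVP mono-culture replicate 2 or 5 (0.36 to 0.37). Of 6 heat shock factors tested HSF1 rose (0.44, SE 0.10, adjusted p = 0.00389), with a list median of 0.096. No further small heat shock protein passed (0 of 4, median 0.448). The nearest to passing were HSPB2, the neighbour of CRYAB in the ARS-UCD2.0 annotation (0.76, SE 0.34, adjusted p = 0.110, and 0.84, SE 0.20, adjusted p = 0.0210 with the conceptus block), and HSPB7 (1.03, SE 0.65, adjusted p = 0.274). None of the genes taken from these lists by smallest p passed once the log2 TMM factor was a covariate.

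**Figure D5:**
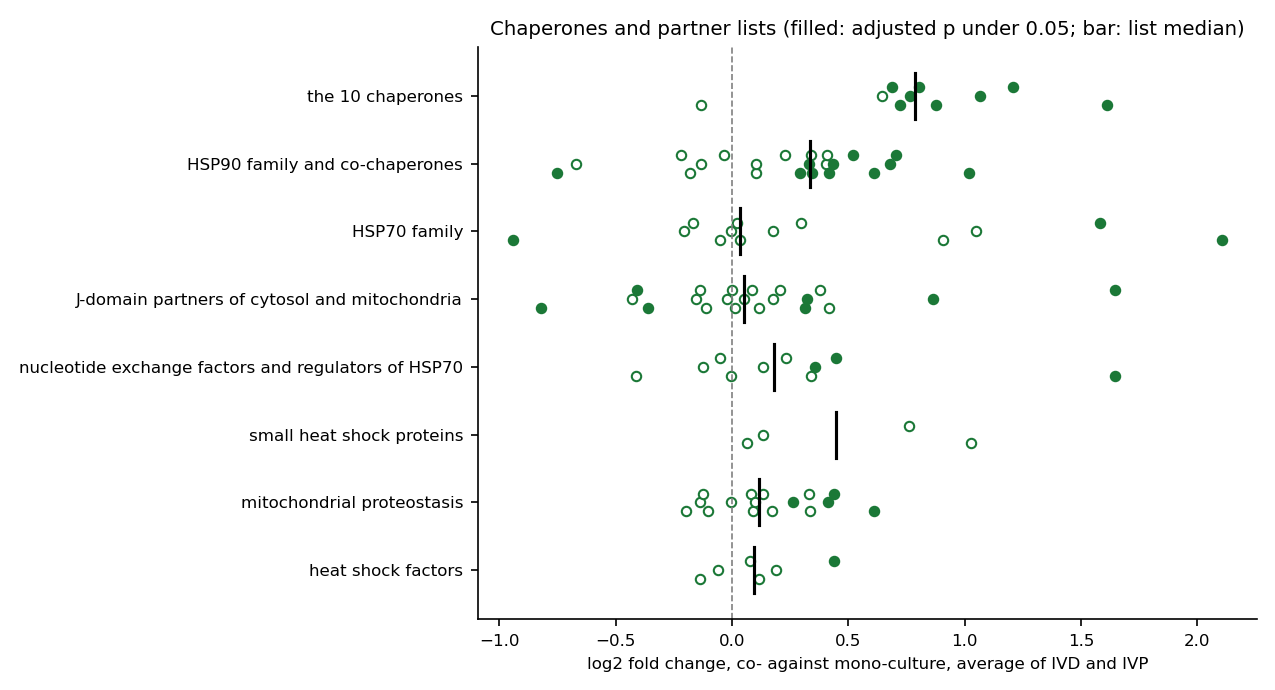
Average log2 fold change of co- against mono-culture for the 10 chaperones and 7 lists of partner genes. Each point is 1 gene, filled where the adjusted p was under 0.05 in edgeR, and the bar is the list median. The chaperones have a median of 0.78 with 8 filled points, and the HSP90 list has a median of 0.335 with 10 filled points above 0 and 1 below.

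All 10 transcripts were also detected in the 12 libraries of endometrium that had lain under IVP conceptus sections. These libraries were aligned with another tool and carry another batch date than the conceptus libraries, so levels are described and not tested against them. Their CPM was taken on plain library totals, without the TMM scaling used for conceptus. HSP90AB1 varied least there, at 2115, 2362 and 3699 CPM (lowest, median and highest), a ratio of 1.75 between the extremes. HSPA8 varied most, at 1247, 2373 and 12020 CPM (9.63), followed by CRYAB at 142.8, 387.4 and 1272 CPM (8.91) and HSPH1 at 427.8, 1088 and 3186 CPM (7.45). HSP90AA1 stood at 2705, 4401 and 16470 CPM, HSPD1 at 261.3, 468.4 and 1280 CPM, HSPE1 at 100.8, 132 and 288.5 CPM, and FKBP4 at 211.4, 410.7 and 1213 CPM. CHORDC1 was at 44.05, 52.21 and 114.6 CPM and HSPB1 at 308.7, 757.9 and 2017 CPM.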

How the data were processed

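The authors trimmed reads with Trimmomatic, used HISAT2 for conceptus and STAR for endometrium to align to ARS-UCD1.2, and deposited whole-number featureCounts counts per gene; versions, strand setting and the handling of multiply aligned reads are not given in the sources used here. Reads that also match a related sequence could therefore be split or dropped. The levels of paralogs (HSP90AA1 and HSP90AB1, HSPA8 and HSPA1A) and of HSPD1 and HSPE1, which have pseudogenes, carry that uncertainty. Samples were grouped by title; the treatment field of IVP co-culture replicate 1 names medium alone, against its title, and the mono-culture group sizes in the protocol text differ from those of the titles used here. The conceptus table holds 16149 genes, 2031 without a symbol. Of the endometrial data, 28 columns and 1 line naming no gene were not used. The batch date in the labels is 1 date for all 29 conceptus libraries and another for the 12 endometrial libraries. Pairs of libraries within a group all differed beyond sampling noise (chi-square per degree of freedom of 121.6 or more, on genes counted at least 10 times).

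edgeR 4.0.16 in R 4.3.3 was used for the tests. Of the genes, 15942 passed filterByExpr with a minimum count of 10 and a minimum total of 15. After TMM scaling, all 29 conceptus libraries entered 1 quasi-likelihood model with a mean for each group (25 residual degrees of freedom, 14 with the conceptus as block). P-values were adjusted by Benjamini-Hochberg over all genes tested, with a threshold of 0.05, and log2 CPM used a prior count of 1. The p-values measure the spread between sections, some of which share a conceptus. The steps were tested on simulated data.

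Deviations from the group means, taken on the 1000 most variable genes, were correlated between cultures of 1 conceptus in each of 16 pairs (r from 0.12 to 0.817, median 0.587, all above 0.1), so the conceptus pairs the samples. The 13 pairs that share a title number, 2 of which also share a conceptus, had a median of -0.317, with 4 above 0.1. Alternatives were RLE in place of TMM, a filter at a mean CPM of 1 or none, a fit of only the groups in question, DESeq2 1.42.0, conceptus or title number as block, limma 3.58.1 voom with the conceptus as random block (consensus correlation 0.281), counts summed per conceptus and culture, the log2 TMM factor as covariate, 1 factor of unwanted variation from residuals, and every library or conceptus left out in turn. The study itself used DESeq2 and RUVSeq.

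The 10 members and the partner lists were chosen with earlier results of these data known. Besides the members, the text names up to 4 genes per partner list that passed in the average with the smallest p (the 2 smallest p where none passed), and per member the 3 named genes of mean log2 CPM 1 or more that correlated best with it.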

Additional observations from a re-analysis of the deposited data

Results flagged for a closer look

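Among the 40 sets of values of 1 member in 1 conceptus group, 2 held a library far from the others of its group, and chance alone marks about 5% of such sets. HSPB1 in IVP mono-culture replicate 3, from conceptus 62a, was the highest of 5 at a log2 CPM of 9.96 (999.3 CPM), and its gap to the next library took 0.711 of the range of the group. HSPA8 in IVD co-culture replicate 5, from conceptus 50, was the lowest of 9 at a log2 CPM of 10.78 (1762 CPM), with a gap of 0.511 of the range.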

How the results depend on the processing

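Of the 10 members, 4 passed in IVD tissue, and the number was 7 with DESeq2, 7 with only the compared groups, 7 with limma voom and the conceptus as a random block, 8 with counts summed per conceptus, 8 with 1 factor of unwanted variation, 1 with the conceptus as a fixed block, 2 with the title number as block, 0 with the log2 TMM factor as covariate, and 0 to 7 when libraries or conceptuses were left out. CHORDC1, as lower, was among the 7 with only the compared groups and the 8 with summed counts. In IVP tissue, where none passed, the number was 5 with DESeq2, 4 with summed counts and 3 with 1 factor of unwanted variation. It was 0 to 4 there when libraries or conceptuses were left out. The average (8) dropped to 0 with the TMM covariate, and to 7 with summed counts, where HSPB1 was lost, and IVP against IVD in co-culture (0) gave 1 with DESeq2 and 0 to 1 when libraries were left out. Counts of all genes moved likewise. In IVD tissue 1009 became 1920 with DESeq2, 1843 with voom, 2433 with the factor of unwanted variation, 206 with the conceptus block, 555 with the number block, 191 with the TMM covariate and 214 to 1719 when libraries or conceptuses were left out. In IVP tissue 0 became 489, 107 and 113 with DESeq2, summed counts and the factor of unwanted variation, and up to 208 and 354 when libraries and conceptuses were left out. On average 3006 became 1995 with the number block, 2 with the TMM covariate, 4600 with the factor of unwanted variation and 1580 (without conceptus 62b) to 3599 when libraries or conceptuses were left out. In IVP against IVD co-culture 4 became 157, 15, 146 and 2 with DESeq2, summed counts, the factor of unwanted variation and voom, 0 with only the compared groups, the number block or the TMM covariate, and 0 to 107 when libraries or conceptuses were left out.

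Pairing by conceptus, with that block, changed no call of a member beyond those given with the results. Directions turned for these estimates, none of them past the threshold, and the cause was not tested. With the TMM covariate these were HSP90AB1 in IVP against IVD mono-culture (-0.007), HSPD1, HSPE1 and HSPB1 in co-culture (-0.045, -0.031 and -0.038), the difference of changes of HSPD1, HSPE1 and HSPA8 (-0.099, -0.093 and -0.069) and the average of HSPB7 (-0.052). With the title number as block they were HSPB1 and CRYAB in IVP against IVD co-culture (-0.113 and -0.01). When libraries or conceptuses were left out, IVP against IVD mono-culture spanned 0 for CHORDC1 (-0.149 to 0.022), HSP90AB1 (-0.104 to 0.167), HSPB1 (-0.213 to 0.234), HSPD1 (-0.06 to 0.2) and HSPE1 (-0.002 to 0.186). The same held in co-culture for CRYAB (-0.086 to 0.399) and HSPB1 (-0.154 to 0.214), and for the difference of changes of HSPA8 (-0.11 to 0.27), HSPB1 (-0.318 to 0.318) and HSPH1 (-0.114 to 0.802). Over the 11 conceptuses, the within-conceptus medians of the 10 members moved by less than their SD without TMM scaling or with RLE factors. Without TMM scaling all but that of HSPH1 were lower, such as HSP90AA1 (0.803 to 0.426) and HSPD1 (1.106 to 0.791). In the 4 IVP conceptuses 3 medians then moved by more than their SD. These were HSP90AA1 (0.973 to 0.695, SD 0.115), CRYAB (0.415 to 0.196, SD 0.115) and HSPE1 (0.827 to 0.479, SD 0.342).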
